A study of Ovis aries with 3 samples.

Results

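JCHAIN encodes the joining chain of immunoglobulins, a small protein that links antibody units into dimeric IgA and pentameric IgM. It is made by antibody-secreting plasma cells, which in the gut lie in the lamina propria under the epithelium. Antibodies that carry the joining chain can bind the polymeric immunoglobulin receptor (PIGR) on epithelial cells, which carries them across the epithelium into the lumen. In the sheep mucosa examined here, JCHAIN had an RPKM (a read number scaled to transcript length and to the read total of the library) of 6625.79 in duodenum, 3659.07 in cecum and 662.67 in proximal colon. Where 3 values follow each other below, they are in this order of regions unless other ones are named. The duodenal level was 1.81-fold the cecal level and 9.999-fold the colonic level, and the cecal level was 5.52-fold the colonic level.

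The gene was taken as the exon rows of transcript XM_004009888.2 in the files. The study paired a later version of this accession with the symbol JCHAIN in a qRT-PCR check, and the match was made without the version. There are 4 such rows in each of the 3 files, of 903107 exon rows in all, and they form 1 of 28601 gene loci. The samples are mucosal epithelial tissue from these regions of 3 healthy Small tailed Han sheep, ewes of 11 months, and the RNA of the ewes was pooled into 1 library per region. No region has a replicate among these libraries, so no difference below has a replicate check here. The spread between animals is unknown, and intervals cover the counting of reads only. The study also took published libraries of these regions from Texel sheep as a further biological replicate. It reported that qRT-PCR profiles, that of JCHAIN included, matched its sequencing. Neither the Texel libraries nor the qRT-PCR values were used here. In units of 1000000 reads, the file headers give totals of 50.8, 46.3 and 53.8. Reads summed over distinct exons came to 68649323, 64368455 and 74984599, above these totals, so that some reads stand on more than 1 exon row and counts are not independent molecules. At this depth 3 reads on JCHAIN would give an RPKM of 0.0447, 0.0491 and 0.0423. The study took its qRT-PCR set, JCHAIN included, from transcripts that differed between regions in these and the Texel libraries. The levels of JCHAIN are therefore given as a description without a test.

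JCHAIN was among the most abundant transcripts of the upper gut sample. Its 4 exons held an estimated 444244.81, 223514.26 and 47048.49 reads. As a share of the reads on all distinct exons, this was 0.647% in the duodenum (95% Wilson interval 0.645% to 0.649%), 0.347% in the cecum (0.346% to 0.349%) and 0.0627% in the colon (0.0622% to 0.0633%). By RPKM the locus ranked 4 of 26163 loci with reads in the duodenum, 7 of 25872 in the cecum and 102 of 26379 in the colon. The study picked part of its qRT-PCR set for highest expression and part at random, so these ranks are a description too.

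As log2 ratios, JCHAIN had -0.86 for the cecum relative to the duodenum (95% Clopper-Pearson interval -0.86 to -0.85), -3.32 for the colon relative to the duodenum (-3.34 to -3.31) and 2.47 for the cecum relative to the colon (2.45 to 2.48). The intervals of the 3 levels do not overlap, but they hold no variation between animals. Across the 16373 loci with an RPKM of at least 1 in a region, the medians of these ratios were 0.05, -0.02 and 0.09. A lower colon-to-duodenum ratio than that of JCHAIN was found at 294 loci, or 1.80% of those tested. For cecum over duodenum 1410 loci (8.61%) had a lower ratio, and for cecum over colon 88 loci (0.537%) had a higher one. Of the 61 loci with an RPKM of at least 1000 in the duodenum, 12 were at least 2-fold lower in the colon, and 8 of these had a lower ratio than JCHAIN.

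**Figure D1:**
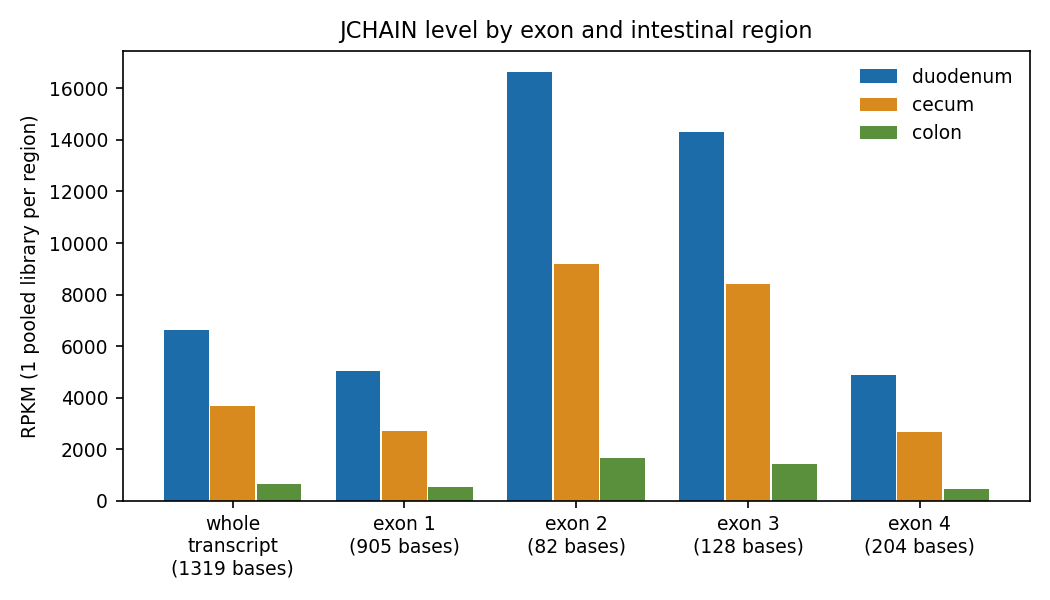
RPKM of the whole JCHAIN transcript and of each of its 4 exons (horizontal axis, with exon length) in 1 pooled library per region; bars have no error because there are no replicates. The order duodenum, cecum, colon holds for every exon, and the short exons 2 and 3 have the highest values.

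The exons are numbered here as in the files, from the lowest position upward. The files give positions without a chromosome or a genome build, so these positions cannot be set against an assembly. Exon 1 (905 bases, positions 85672646 to 85673550) had an RPKM of 5022.56, 2706.03 and 517.58. Exon 2 (82 bases, 85674401 to 85674482) had 16630.89, 9192.07 and 1640.53 in the same order. Exon 3 (128 bases, 85678936 to 85679063) had 14327.14, 8410.82 and 1427.11. Exon 4 (204 bases, 85682330 to 85682533) had 4884.30, 2681.53 and 433.64. Every exon was highest in the duodenum and lowest in the colon, and each was covered over 100% of its length in all 3 libraries.

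The level differed more between exons of the same library than between duodenum and cecum. Exon 2 stood at 2.51 times the RPKM of the whole transcript in the duodenum, 2.51 times in the cecum and 2.48 times in the colon, and exon 3 at 2.16, 2.30 and 2.15 times. Exons 1 and 4, at the ends, stood at 0.758 and 0.737 times in the duodenum. Short internal exons were above their transcript in many other genes too. In the duodenum the median over 4275 internal exons under 150 bases, from 904 loci with 1 transcript and an RPKM of at least 10, was 1.38 times the level of the locus, with quartiles of 1.06 and 1.76. Values at least as high as that of JCHAIN exon 2 were seen for 7.25% of these exons. How reads across an exon junction were counted is not given in the sources used here, and their part in these levels was not tested.

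The share of JCHAIN reads that fell on each exon was nearly the same in the 3 regions. Exon 1 held 52.0%, 50.7% and 53.6% of them, and exon 2 held 15.6%, 15.6% and 15.4%. Exon 3 held 21.0%, 22.3% and 20.9%, and exon 4 held 11.4%, 11.3% and 10.1%. The ratios between regions were therefore close from exon to exon. For colon over duodenum they ran from -3.49 at exon 4 (-3.54 to -3.45) to -3.28 at exon 1 (-3.30 to -3.26), a range of 0.21 on the log2 scale. For cecum over duodenum they ran from -0.89 at exon 1 (-0.90 to -0.88) to -0.77 at exon 3 (-0.78 to -0.75), a range of 0.12. For cecum over colon the range was 0.24, from 2.39 at exon 1 to 2.63 at exon 4. The lowest and the highest exon of each comparison differed by more than their counting intervals. Among 245 other loci with 1 transcript, 3 to 5 exons and an RPKM of at least 10 at every exon and region, the median range of the exon ratios was 0.26, 0.30 and 0.24 in the same order of comparisons.

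**Figure D2:**
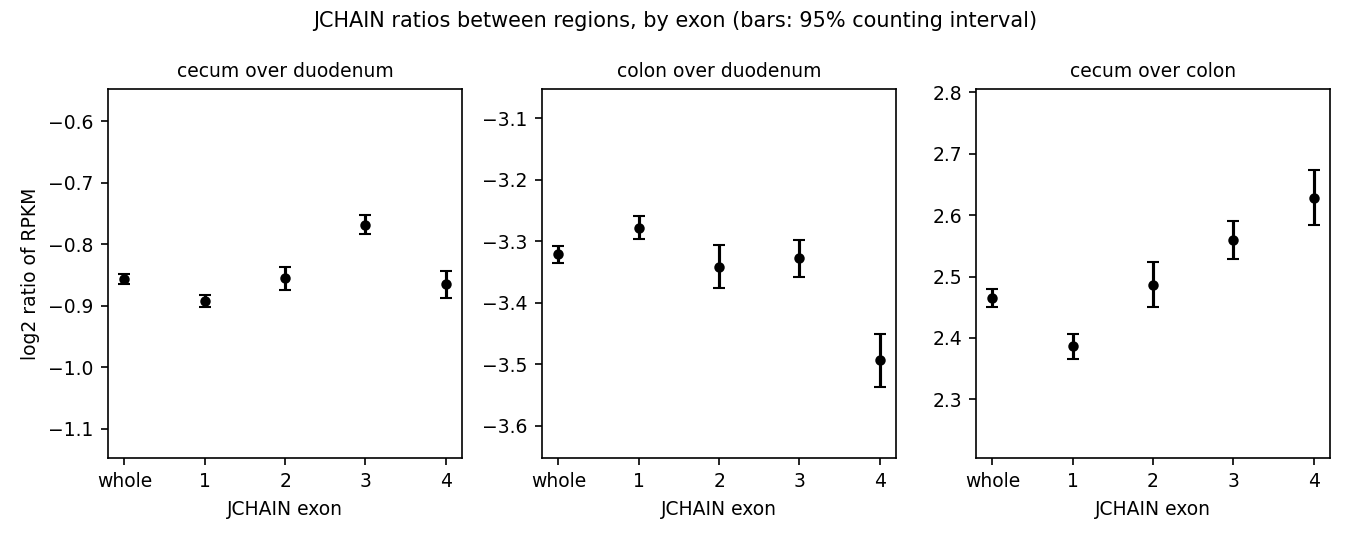
Log2 ratio of RPKM between 2 regions (vertical axis, the same span in each panel) for the whole JCHAIN transcript and for exons 1 to 4, with 95% counting intervals from the reads. Exon 4 has the lowest ratio of colon over duodenum (-3.49), and exon 3 the highest of cecum over duodenum (-0.77).

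A further transcript of the files, XM_012158947.1, lies at the same positions. Its exon 1 (423 bases) and exon 2 (483 bases) together cover JCHAIN exon 1, and its exon 3 (157 bases) starts where JCHAIN exon 2 starts and runs 75 bases further. It was kept as a locus of its own because no exon of it equals one of JCHAIN. Its exons 1 and 2 held 231117.18 reads together in the duodenum, against 231054 on JCHAIN exon 1, so the same reads stand under both transcripts and they cannot be told apart. In the cecum the sums were 113435.79 and 113414.76, and in the colon 25219.45 and 25213.1.

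These rows divide JCHAIN exon 1 in parts. The part next to exon 2 had an RPKM of 7519.92, 3998.33 and 739.29. The outer part, at the end of the transcript, had 2162.04, 1225.09 and 263.47. The inner part was thus 3.48-fold higher than the outer part in the duodenum, 3.26-fold in the cecum and 2.81-fold in the colon. Colon over duodenum was -3.35 (-3.37 to -3.33) for the inner part and -3.04 for the outer part, the smallest difference between these regions at any part of JCHAIN. The longer exon 3 of XM_012158947.1 had 70066.13 reads in the duodenum against 69321.65 on JCHAIN exon 2, and 34640.17 against 34907.29 in the cecum. In the cecum the longer exon had the lower estimate, so the estimates are not simply nested. It was covered over 99.36%, 89.17% and 97.45% of its length.

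**Figure D3:**
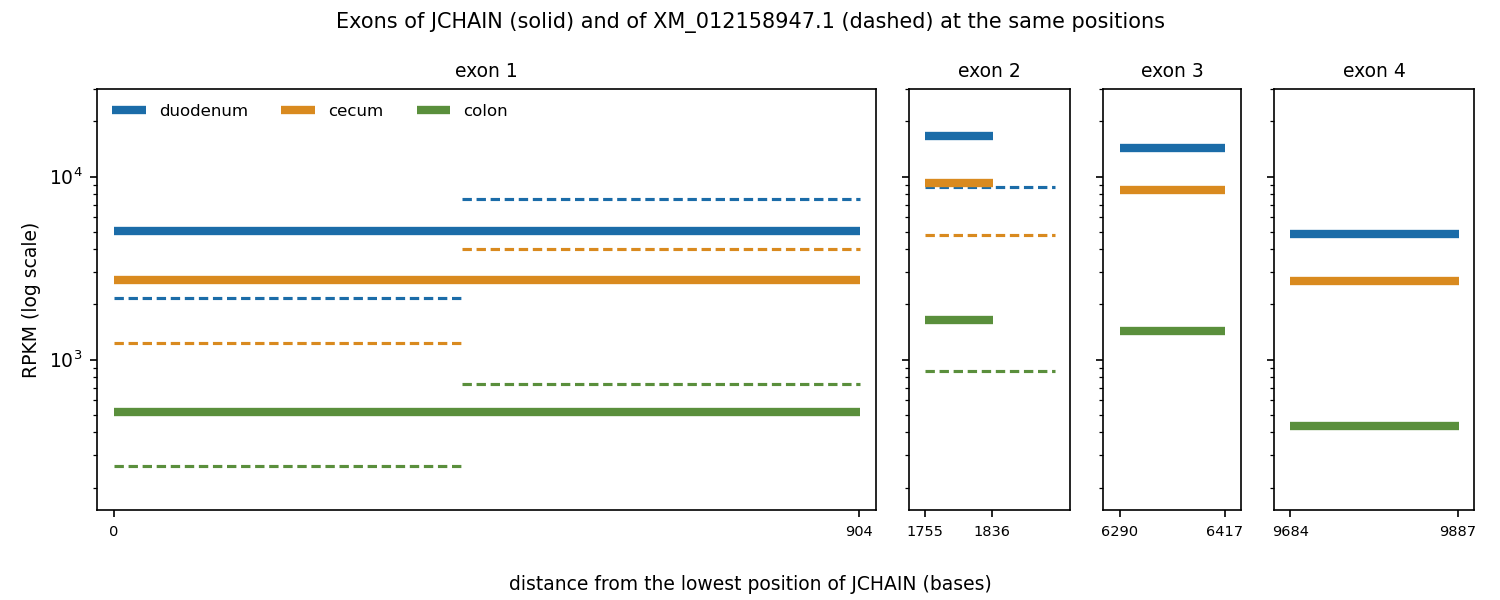
RPKM (log scale) of the 4 JCHAIN exons (thick lines) and of the exons of XM_012158947.1 at the same positions (dashed), by distance from the lowest position of JCHAIN in bases and to scale, with the stretches between exons left out. The step inside exon 1 is 3.48-fold in the duodenum and 2.81-fold in the colon.

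By RefSeq's gene table of the ARS-UI_Ramb_v3.0 assembly, JCHAIN lies between ENAM, which encodes a tooth enamel protein, and UTP3, a gene of ribosome biogenesis. In the same table it lies within the span of a long noncoding RNA gene, LOC105612199, whose transcripts did not match the files. ENAM had an RPKM of 0.483, 0.236 and 0.283, under the minimum for testing. UTP3 had 6.90, 5.88 and 5.08, and its colon-to-duodenum log2 ratio was -0.44 (-0.58 to -0.30). Both neighbours were orders of magnitude below JCHAIN and differed less between colon and duodenum.

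The levels of JCHAIN were set beside marker lists of the cell types that the tissue could hold. Genes of these lists were found through RefSeq's gene table, which pairs 8735 of the 83089 transcripts of the files with a symbol, and 64 of the 124 listed symbols were found. Genes that were not found, among them PIGR, TNFRSF17, XBP1, IRF4, SDC1, MS4A1 and PTPRC, and the immunoglobulin heavy and light chains, were not analysed here. A locus was called different between 2 libraries at a false discovery rate below 0.001 and at least 2-fold in RPKM, with the Audic-Claverie test on reads. These limits and the test are those of the study, which applied them to transcripts and kept those that differed in Texel sheep too. That further condition was not applied here. The Audic-Claverie test compares 2 libraries and not the regions. A level is that of the joined locus, which can hold exons of further transcripts. On the exons of the matched transcript alone, the level was over 1.5-fold higher in a region for 9 of the 64 genes, among them MZB1, PRDM1, TNFRSF13B, CXCL12, PAX5, CD79B and LCP1, so levels are compared between regions rather than between these genes. In bulk tissue, fewer cells of a type and less RNA per cell cannot be told apart.

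Of 17 plasma cell markers 8 were found and tested. Between colon and duodenum 4 of them were called lower in the colon, 1 was called higher and 3 were not called, where 7.32% of all tested loci were called lower and 9.14% higher. The median log2 ratio of the list was -1.03, against -0.02 over all loci. MZB1, a chaperone that helps assemble and secrete antibodies, had an RPKM of 122.41, 94.15 and 31.53. Its colon-to-duodenum log2 ratio was -1.96 (-2.02 to -1.90), the lowest of the list. The other members called lower were PRDM1, the transcription factor of plasma cell differentiation, at -1.28 (-1.36 to -1.21), the receptor CD27 at -1.32 (-1.42 to -1.22) and the receptor TNFRSF13B at -1.39 (-1.51 to -1.27), named here because so few were called. The ratio of JCHAIN was lower than that of every one of the 8. None of the 4 was called lower by edgeR's exact test when a coefficient of variation of 0.4 was set by hand, since single libraries give no spread.

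The other plasma cell markers did not follow this order. ITM2C, a membrane protein that other cells make too, had 78.36, 314.83 and 380.14, and was called higher in the colon. FKBP11, a folding enzyme of secretory cells, had 241.14, 128.29 and 140.67, so that cecum and colon were close. POU2AF1, a coactivator of antibody genes in B cells and plasma cells, had 30.39, 25.19 and 46.17. CD79A, part of the B cell receptor and shared by B cells and some plasma cells, had 24.91, 16.55 and 27.51. The last 3 genes were not called in any comparison. Because ITM2C outweighs the others, the summed RPKM of the list was 513.62, 592.33 and 632.60, against the direction of its median.

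Between cecum and duodenum the list gave no call in the direction of JCHAIN. None of the 8 markers was called lower in the cecum, 1 (ITM2C) was called higher and 7 were not called, beside 6.66% of all loci called lower and 11.2% called higher. The ratio itself was below 0 for 7 of 8, with a median of -0.33. JCHAIN at -0.86 was also short of a 2-fold difference. FKBP11 at -0.91 (-0.95 to -0.87) and TNFRSF13B at -0.84 (-0.95 to -0.72) were near it, and MZB1 was at -0.38 (-0.42 to -0.34). The joined locus of TNFRSF13B had a low RPKM of 1.62, 0.907 and 0.619. On the exons of its matched transcript alone it had 7.42, 5.05 and 3.48, with smaller relative differences from the duodenum. Between cecum and colon 3 of 8, MZB1, PRDM1 and CD27, were called higher in the cecum and none lower, and the ratios of PRDM1 (1.01) and CD27 (1.07) lay close to the 2-fold limit. Of all loci, 2.91% were called higher in the cecum and 3.03% lower.

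The difference between regions was larger for JCHAIN than for MZB1. The RPKM of JCHAIN was 54.1 times that of MZB1 in the duodenum, 38.9 times in the cecum and 21.0 times in the colon. These levels of MZB1 are those of its joined locus. On the exons of its matched transcript alone, an alternative chosen after seeing the data, MZB1 had 185.78, 142.69 and 48.53, and JCHAIN was 35.7, 25.6 and 13.7 times as high. Relative to MZB1 the log2 ratio of JCHAIN for colon over duodenum was thus -1.36 instead of -3.32, and for cecum over duodenum -0.48. Relative to EPCAM, an adhesion protein of epithelial cells, it was -3.36 and -0.78. EPCAM itself was nearly level, at 582.15, 550.28 and 596.22. Relative to CD53, a membrane protein of most leukocytes with an RPKM of 55.00, 54.29 and 55.01, the ratios were -3.32 and -0.84. These reference genes were chosen after their values were seen.

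**Figure D4:**
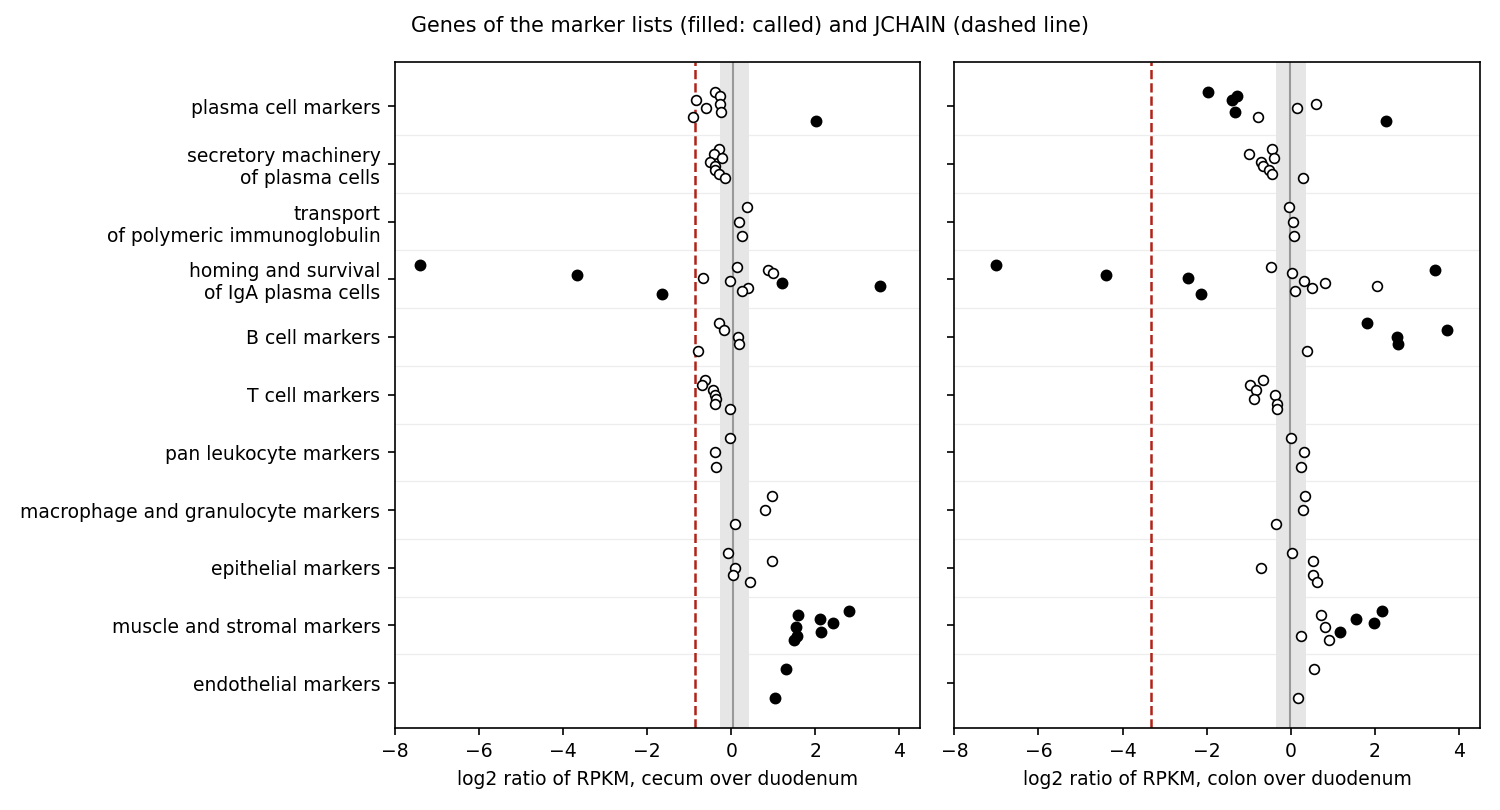
Log2 ratio of RPKM over the duodenum for the 64 genes of the marker lists, in the cecum (left) and the colon (right); filled points were called and open points were not. The dashed line is JCHAIN (-0.86 and -3.32), the gray line and band are the median and quartiles of the 16373 tested loci, and no plasma cell marker lies as low as JCHAIN in the colon.

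Genes that serve protein folding in the endoplasmic reticulum, which plasma cells use heavily and other secretory cells use as well, differed less. Of 16 listed, 8 were tested and none was called in any of the 3 comparisons. Over all loci, 2.91% to 11.2% were called per comparison and direction, so no reading is drawn from the missing calls. The ratio of colon over duodenum was below 0 for 7 of them, with a median of -0.47. HSP90B1, a chaperone, had the lowest, with 476.35, 357.69 and 240.70. CALR, a calcium-binding chaperone, had 684.61, 564.13 and 506.27, and HSPA5, the main chaperone of this compartment, 305.14, 250.16 and 225.27. HERPUD1, which takes part in the removal of misfolded proteins, was the exception, with 140.01, 126.82 and 172.25.

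Among genes for the homing and survival of IgA plasma cells, 12 of 22 were tested. Between colon and duodenum 4 were called lower and 1 higher in the colon, and between cecum and duodenum 3 were called lower and 2 higher in the cecum. Between cecum and colon 2 were called higher and 1 lower in the cecum. Over all loci the shares were 7.32% lower and 9.14% higher in the colon than in the duodenum, 6.66% lower and 11.2% higher in the cecum than in the duodenum, and 2.91% higher and 3.03% lower in the cecum than in the colon. By edgeR's exact test with the setting above, 2 were called lower in the colon and 1 lower in the cecum than in the duodenum, and none was called in any other direction. The median log2 ratios over the duodenum, 0.07 for the colon and 0.19 for the cecum, lay close to those of all loci. For cecum over colon the median was 0.44, against 0.09 over all loci. By the Audic-Claverie calls the members went different ways, and they are described one by one. Those outside the fixed naming rule, CCR9, CCL20, CXCL12, MADCAM1 and IL6, are named because so few were called or, for CXCL12, after its values were seen.

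CCR10, a receptor on IgA plasma cells that binds CCL28, followed the order of JCHAIN. Its RPKM was 24.14, 15.13 and 4.48. The colon-to-duodenum log2 ratio was -2.43 (-2.66 to -2.21), and that of cecum over duodenum was -0.67 (-0.82 to -0.53). CCR10 was called lower in the colon than in either other region and was not called between cecum and duodenum, the same calls as MZB1. Neither call of CCR10 was made by edgeR's exact test with the setting above. CCL28, its ligand, which epithelial cells make, had 62.42, 68.59 and 44.98 and was not called in any comparison.

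CCR9 and its ligand CCL25, which direct lymphocytes to the small intestine, had another pattern. CCL25 had an RPKM of 299.18, 1.76 and 2.30. CCR9 had 19.20, 1.51 and 0.916. Both were called lower in the cecum and in the colon than in the duodenum, and neither was called between cecum and colon. The fall of CCL25 from duodenum to cecum was -7.41 (-7.62 to -7.21) on the log2 scale, where JCHAIN had -0.86. In the cecum JCHAIN was at 55.2% of its duodenal level. Whether CCR9 and CCL25 bear on the level of JCHAIN was not tested. CCR9 is also carried by T cells of the small intestine.

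ALDH1A1, an enzyme that makes retinoic acid, had 524.45, 167.10 and 118.66 and was called lower in cecum and colon than in the duodenum. CCL20, a chemokine that draws lymphocytes to lymphoid follicles, was called higher in the colon than in either other region, with 1.06, 1.96 and 11.52. MADCAM1, the vessel wall ligand of gut-homing lymphocytes, was called higher in the cecum than in the duodenum (6.75, 15.53 and 11.84). IL6, an interleukin, was called higher in the cecum than in either other region. Its RPKM was at most 1.10, and its duodenal value rests on 5 reads. TGFB1, a growth factor with a part in the switch to IgA, had 29.26, 34.87 and 31.29 and was not called. CXCL12, a chemokine that retains plasma cells, had 13.79, 27.34 and 14.19 and was not called either.

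B cell markers went the opposite way. Of 13 listed, 5 were tested, of which 4 were called higher in the colon than in the duodenum and none lower, beside 9.14% of all loci called higher, with a median log2 ratio of 2.54. All 5 were called higher in the colon than in the cecum, beside 3.03% of all loci. None was called between cecum and duodenum, beside 6.66% of all loci called lower and 11.2% called higher in the cecum. CD79B, the partner chain of CD79A in the B cell receptor complex, had an RPKM of 3.35, 3.79 and 19.68. CR2, a complement receptor of B cells and follicular dendritic cells, had 2.45, 2.73 and 14.27. PAX5, the transcription factor that keeps B cell identity and is shut off in plasma cells, had 0.269, 0.238 and 3.58. CD40, a receptor that takes T cell help, had 9.02, 5.21 and 11.86 and was the one not called between colon and duodenum. By edgeR's exact test with the same setting, none of the 4 was called. The library with the lowest JCHAIN was thus the library with the highest level of all 5 B cell markers tested. None of them was at 0 in any library.

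The other cell types differed in other ways. All 7 T cell markers tested, of 10 listed, had a ratio below 0 in cecum and colon against the duodenum, with medians of -0.39 and -0.66, and none was called in any comparison. CD3E, a chain of the T cell receptor complex, had 111.41, 68.36 and 56.92, and CD3D, another such chain, had 72.12, 46.73 and 45.68. CD247, a signalling chain of the same complex, had 63.04, 61.77 and 50.56, and LCK, a kinase of T cell signalling, had 29.71, 22.69 and 23.80. Of 5 markers of all leukocytes 3 were tested and none was called. CORO1A, an actin-binding protein of leukocytes, had 130.17, 99.01 and 161.43, and LCP1, another one, had 29.72, 23.02 and 35.28. The 3 macrophage markers tested, of 8, and the 3 genes tested, of 8 listed for the transport of polymeric immunoglobulin, gave no call either. With 2.91% to 11.2% of all loci called per comparison and direction, no reading is drawn from missing calls in lists this short. FCGRT, the neonatal Fc receptor, had 223.51, 290.88 and 218.26, and CD68, a macrophage lysosomal protein, had 19.43, 33.79 and 23.75.

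Muscle and stromal genes moved in the tissue as well. All 8 tested, of 11, were called higher in the cecum than in the duodenum, and 4 of 8 were called higher in the colon, beside 11.2% and 9.14% of all loci. None of these calls, nor those of the endothelial markers, was made by edgeR's exact test with the setting above. Between cecum and colon 1 of 8 was called, beside 2.91% of all loci called higher and 3.03% called lower in the cecum. It was DCN, a matrix proteoglycan, which was higher in the cecum (88.26, 261.39 and 103.95). DES, the intermediate filament of muscle, had 174.59, 1212.10 and 789.59, and TAGLN, a smooth muscle protein, had 260.44, 1120.54 and 764.15. CNN1, another smooth muscle protein, had 116.98, 628.38 and 465.69, and COL3A1, a fibrillar collagen, had 125.68, 550.65 and 283.74. The summed RPKM of the list was 1108.48, 4762.81 and 3018.80. Both endothelial markers tested, PECAM1 and KDR, were called higher in the cecum than in the duodenum and not in the colon. KDR, at a cecum-to-duodenum log2 ratio of 1.04 (0.98 to 1.09), lay close to the 2-fold limit. Epithelial markers gave no call among the 5 tested of 10, where 2.91% to 11.2% of all loci were called per comparison and direction. Their summed RPKM was 2245.41, 3108.58 and 2719.88. KRT8, a keratin, had 763.23, 1494.81 and 1104.29, KRT20, another keratin, 376.81, 402.04 and 229.86, and CLDN7, a tight junction protein, 370.75, 504.62 and 569.59. The large intestine libraries therefore differ from the duodenum in muscle and stromal RNA as well as in JCHAIN. The cecum had the highest muscle sum and the colon the lowest JCHAIN level, and the part of tissue composition in the JCHAIN ratios was not tested.

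The loci whose pair of ratios lay nearest to that of JCHAIN were sought among the 1627 loci with an RPKM of at least 50 in the duodenum. Likeness was the distance in the plane of log2 cecum over duodenum and log2 colon over duodenum, so it rests on 3 libraries only. The nearest locus, at a distance of 0.045, was XM_012158947.1, which holds the reads of JCHAIN itself and is no independent case. It had an RPKM of 5573.89, 3007.89 and 569.05. The next was XM_012136634.1, which has no symbol here, at 0.52, with 521.44, 203.81 and 46.65. LOC101103860 followed at 0.69 (120.00, 43.09 and 9.72) and SST, the hormone somatostatin of endocrine cells, at 0.79 (117.78, 58.99 and 20.15). XM_012103068.1 at 0.97 had the highest duodenal and cecal levels of the rest, with 1879.86, 767.74 and 103.10.

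LOC101107675 at 1.08 was the only one of the 10 whose cecal level was not below its duodenal level, with 196.07, 208.69 and 27.92. The last 4 were XM_004009823.2 at 1.18, GALM, an enzyme of galactose metabolism, at 1.23, SORD, the sorbitol dehydrogenase, at 1.26, and XM_004022821.2 at 1.27. In GALM and in SORD most of the difference lay between duodenum and cecum, with log2 ratios of cecum over duodenum of -1.89 and -2.03, unlike JCHAIN. In this order ALDH1A1 came 14, at 1.42, MZB1 16, at 1.45, CD3E 149, at 2.36, FKBP11 187, at 2.54, and CCL25 1599, at 7.52. Of the plasma cell markers MZB1 and FKBP11, the first thus lay nearer to JCHAIN than the T cell gene CD3E and the second farther. ITM2C, a plasma cell marker that also reached this duodenal level, had ratios of 2.01 and 2.28, opposite in sign to those of JCHAIN. Its place in the order is not given here. Apart from the overlapping transcript, no locus lay nearer than 0.52.

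**Figure D5:**
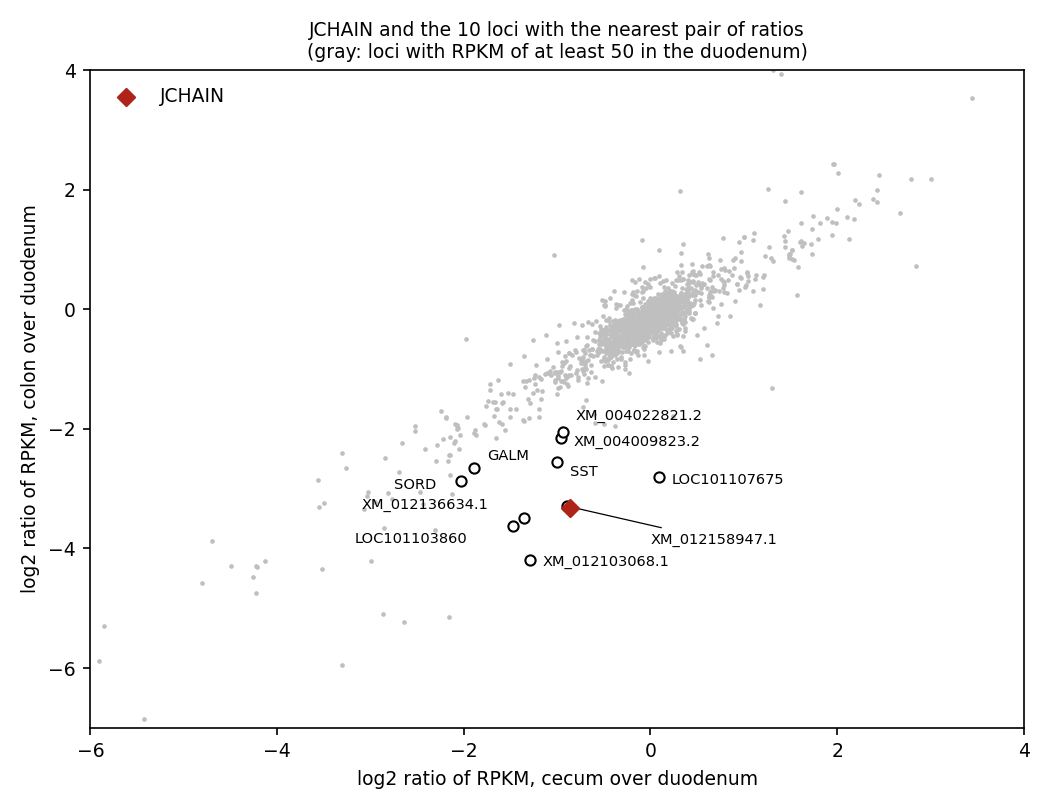
Log2 ratio of RPKM of colon over duodenum against cecum over duodenum for the loci with an RPKM of at least 50 in the duodenum (gray; 35 of 1627 lie outside the axes), with JCHAIN (red) and the 10 nearest loci (open circles). JCHAIN lies below the diagonal band of most loci, with a small difference to the cecum and a large one to the colon.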

How the data were processed

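Each deposited file lists exons by transcript, with the estimated count of reads on the exon, its RPKM (from exon length and the read total in the header, by the authors) and the percent of its length covered, as the authors deposited it. Exons without reads are absent. The submitters' processing notes name BWA and Bowtie 0.12.2, while the study's methods name Bowtie2 and RSEM, with the sheep assembly Oar_v4.0 as reference. The files name no build, and their JCHAIN accession has an earlier version than the study's, so which build their positions refer to was not settled here. Strand is not stated.

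Levels were computed as summed reads divided by summed exon length and read total. Transcripts sharing an exon of equal position and reads were joined into loci. The estimated counts were rounded to whole numbers for the Audic-Claverie test, and p-values were adjusted by Benjamini and Hochberg's method across 16373 loci that reached an RPKM of 1 somewhere. A level of 0 was replaced by 0.001 on the log scale. The calculation was tested on simulated data. Ratios carry 95% Clopper-Pearson intervals. Symbols came from RefSeq accessions, ignoring versions.

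The members and marker lists were chosen with earlier results of these data known. The naming rule covers JCHAIN, up to 4 of the most abundant members of each list, a few set markers, and the 10 loci nearest to JCHAIN. Further genes, such as DCN, PAX5 and PRDM1, were named after their values were seen. Immunoglobulin chains were also part of the rule, but the gene table holds no descriptions to find them by. The values of 1 B cell marker that the rule names are not reported here. The alternatives were other scalings, filters, pseudocounts, exon subsets and the exact test of edgeR 4.0.16. Python 3.11.15, numpy 2.4.6, pandas 2.3.3, scipy 1.17.1, matplotlib 3.10.9 and R 4.3.3 were used.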

Additional observations from a re-analysis of the deposited data

How the results depend on the processing

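The direction of the 3 JCHAIN ratios was the same under every alternative run. Cecum over duodenum (-0.86) became -0.90 with median-ratio scaling, -0.91 with exon reads without the 10 loci with the most reads as the total and -0.90 with all exon reads as the total. Colon over duodenum (-3.32) became -3.28, -3.30 and -3.37 in that order. Cecum over colon (2.47) became 2.38 with each of the first pair of scalings and 2.52 with the median over exons. Leaving out 1 exon at a time gave -0.88 to -0.82, -3.37 to -3.30 and 2.44 to 2.55. Relative to EPCAM, CD53 and MZB1, alternatives chosen after seeing the data, cecum over duodenum was -0.78, -0.84 and -0.48, colon over duodenum was -3.36, -3.32 and -1.36, and cecum over colon was 2.58, 2.48 and 0.89.

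The number of loci called was 2918 for cecum against duodenum, 2695 for colon against duodenum and 973 for cecum against colon. It became 326, 366 and 43 in edgeR's exact test, run at a preset coefficient of variation of 0.4 because nothing could be estimated from single libraries, 4388, 4212 and 1898 without a filter on low values, 1142, 1090 and 327 with RPKM of at least 10, and 1862, 1789 and 489 with a pseudocount of 1 RPKM. The 4 plasma cell markers called lower in the colon than in the duodenum became 0 with edgeR's exact test and 2, MZB1 and CD27, with RPKM of at least 10 or the pseudocount. The 4 B cell markers called higher in the colon became 0 with edgeR's exact test. They became 3 with RPKM of at least 10, a level that PAX5 did not reach, and stayed 4 with the pseudocount. The 1341 recomputed ratios cover the list genes and a further tested gene outside the lists. Of these ratios, 53 lost a call, 1 gained one, 5 uncalled ratios near 0 changed sign and no called ratio did. PRDM1 and CD27 lost their call between cecum and colon with median-ratio scaling and with the pseudocount. The 2 endothelial markers called higher in the cecum than in the duodenum became 1 with each of these settings. No paired analysis was possible because each region has 1 library. Depth did not limit the JCHAIN values; the missing replicates limit what they show.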
